A study of Mus musculus with 6 samples.

Results

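The 9 genes described here are Tert, which encodes the catalytic reverse transcriptase subunit of telomerase, the shelterin genes Terf1, Terf2, Terf2ip, Pot1a, Pot1b, Acd and Tinf2, and Rtel1, a helicase that unwinds the telomeric loop. They were chosen by name, as genes of telomere maintenance, when their difference between Rpl22-/- and Rpl22+/+ in these libraries was already known, so that difference is given as a description and without a p-value. All 9 passed the filter on low counts, among 16656 genes tested and 29374 genes with any read. Polyadenylated RNA was sequenced in 6 libraries, 3 from Rpl22+/+ and 3 from Rpl22-/- leukemias. Both genotypes carried the Mll-AF9 fusion as a knockin allele, so each comparison is between leukemias labelled by their genotype at Rpl22, which encodes a ribosomal protein, and no healthy cells were included. The cells were CD11b+Gr1+ splenocytes purified by flow cytometry from tumor-bearing mice. The labels number the replicates 1 to 3 in each genotype, give no age, and do not say that they came from separate mice, and the study names 1 mouse of each genotype for this experiment, so the spread between libraries may be technical.

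Telomerase adds TTAGGG repeats to chromosome ends by copying its own RNA template, and the protein made from Tert is usually the limiting component. Shelterin coats these repeats: TRF1 and TRF2 bind the duplex, POT1 binds the single-stranded overhang, and TIN2 and TPP1 (made from Tinf2 and Acd) join them. The mouse has a pair of POT1 genes, Pot1a and Pot1b, where the human genome has one, and in hematopoietic cells telomerase is found mainly in stem and progenitor cells.

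Because Tert showed the only difference of more than 1 on the log2 scale among the 9 genes, its proximal promoter is printed here to show which known kinds of promoter element lie next to the start site. The stretch holds the 250 bases before the start of Tert in RefSeq (chr13:73626661-73626910, plus strand, GRCm38.p6), 5′ to 3′, and the capitals mark GC boxes, the element bound by Sp1 and related factors.
Tert: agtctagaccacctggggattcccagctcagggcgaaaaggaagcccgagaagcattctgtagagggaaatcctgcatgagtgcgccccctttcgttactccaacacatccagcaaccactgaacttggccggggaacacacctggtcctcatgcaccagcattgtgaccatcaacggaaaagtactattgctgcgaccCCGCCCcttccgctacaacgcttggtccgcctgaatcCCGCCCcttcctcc
The stretch had a GC content of 57.2% and 12 CpG dinucleotides, and its 2 GC boxes (GGGCGG, searched on both strands) began 51 and 14 bases before the start. Of 32851 mouse promoters of the same length, 32.7% held a GC box. Among the 8 genes with a promoter in the table (Terf1 had none), 4 did: Tert, Pot1a, Pot1b and Rtel1. The E-box CACGTG, bound by Myc with Max and by Mxd1 with Max, was in 6.02% of promoters and in 0 of these 8. The ETS site CCGGAAGT was in 2.88% of promoters and likewise in 0 of the 8. These are matches of letters in a window and were not tested for binding.

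The libraries held between 35828500 and 102866127 estimated reads, the shallowest being Rpl22-/- replicate 1. Rpl22 itself fell from 178 ± 48.8 to 73.9 ± 15.8 CPM (counts per library size scaled by TMM; mean ± SD, n = 3; log2 fold change of -1.27 ± 0.25 SE, edgeR adjusted p = 0.0106), and the genotypes did not overlap. Gene sums do not show which part of Rpl22 is deleted, so the reads that remained in Rpl22-/- check the labels by direction only. Rpl22+/+ replicate 2 stood apart from the other libraries of its genotype. Over genes, its log2 CPM correlated with theirs at 0.926 and 0.934, against 0.992 between replicates 1 and 3, and pairs of Rpl22-/- libraries reached 0.971 to 0.984. Itgam, the CD11b gene, averaged 1928 ± 137 and 948 ± 117 CPM in the genotypes (Rpl22+/+ first), and Ly6g, a Gr1 gene, 159 ± 16.2 and 14.2 ± 2.64 CPM, so both were detected in every library and both fell. Ly6c2, which the Gr1 antibody is also known to bind, averaged 967 ± 274 and 1379 ± 262 CPM and was not called. Of the 7 myeloid genes, 4 fell and 1, Mpo, rose, and their summed level was 5237 to 6735 CPM against 12609 to 15057 CPM. The higher sum in Rpl22-/- came from Mpo, since the other 6 summed to 4125 to 4881 CPM in Rpl22+/+ and 3150.5 to 3782 CPM in Rpl22-/-.

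Among all genes tested, 13.7% were called higher in Rpl22-/- and 13.8% lower (edgeR's quasi-likelihood test, Benjamini-Hochberg adjusted p-value under 0.05), and 17.5% were called with a log2 fold change over 1 in either direction. Of the 9 genes, 1 was called higher, Tert, and 0 were called lower, which was also 0 at an unadjusted p-value under 0.05, with DESeq2 and with limma-voom. Tert was also the 1 gene of the 9 called with a log2 fold change over 1. The genotypes did not overlap in CPM for 3 of the 9, Tert, Terf2 and Rtel1, all higher in Rpl22-/-, where 46.1% of all genes tested did not overlap in one direction or the other. The median log2 fold change of the 9 was 0.18, with 6 above 0 and 3 below, and that of all genes tested was 0.07, with an interquartile range of -0.43 to 0.52. Since the contrast was known when the genes were chosen, nothing is read from these counts. In bulk RNA of this kind, a lower or higher level in every cell and a different share of expressing cells cannot be told apart.

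**Figure D1:**
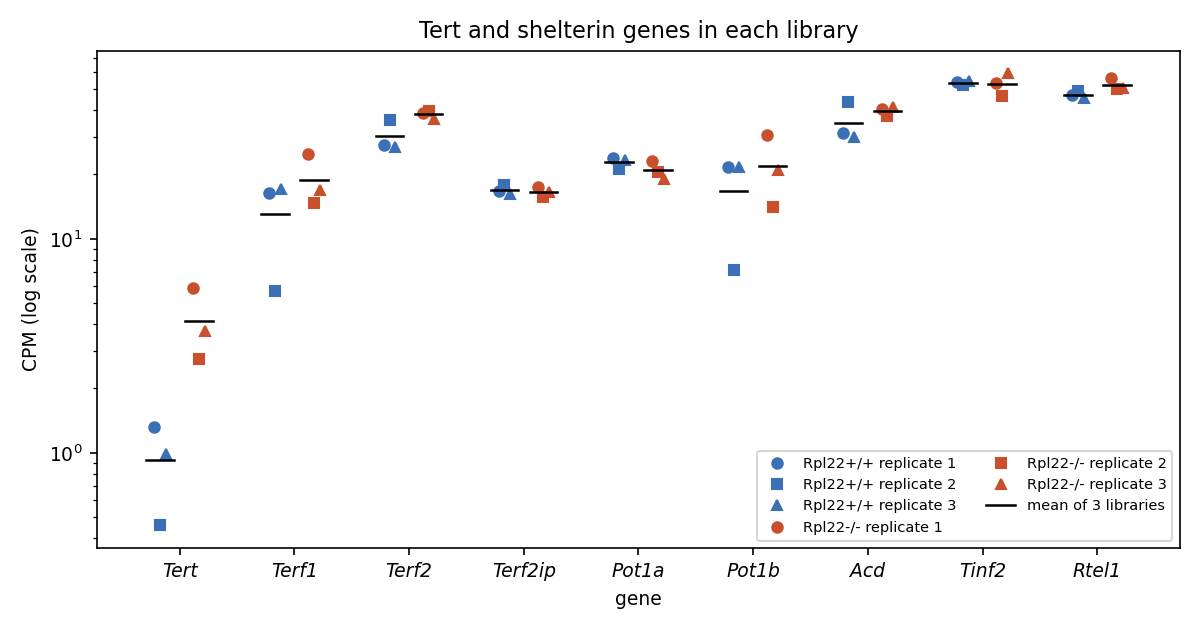
CPM on a log scale for the 9 genes in each of the 6 libraries (blue Rpl22+/+, red Rpl22-/-, symbols for replicates, black bars for the mean of 3 libraries). Tert sits between 0.459 and 1.33 CPM in Rpl22+/+ and between 2.74 and 5.89 CPM in Rpl22-/-, while for most of the other genes the colors lie at the same height, and Rpl22+/+ replicate 2 is the low square of Tert, Terf1 and Pot1b.

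Tert (ENSMUSG00000021611, GRCm39 chromosome 13, 73775030 to 73797962, plus strand) was the gene with the lowest level of the 9 and the largest difference. It was at 1.33, 0.459 and 0.989 CPM in Rpl22+/+ replicates 1 to 3 and at 5.89, 2.74 and 3.70 CPM in Rpl22-/- replicates 1 to 3. The lowest Rpl22-/- library lay above the highest Rpl22+/+ library, and within each genotype replicate 2 was the lowest and replicate 1 the highest. The means were 0.925 ± 0.437 and 4.11 ± 1.61 CPM, and the log2 fold change was 2.15 ± 0.47 SE, or 4.43-fold. These levels rested on 93, 34 and 74 estimated reads in Rpl22+/+ and on 220, 275 and 392 in Rpl22-/-, 201 against 887 in all. Exact Poisson 95% intervals, which treat the estimated reads as counts and cover counting error only, were 1.07 to 1.62 CPM for Rpl22+/+ replicate 1 and 2.43 to 3.09 CPM for Rpl22-/- replicate 2. The log2 fold change was 1.76 without Rpl22+/+ replicate 2. Tert was no longer called without Rpl22+/+ replicate 3 (2.19) or without Rpl22-/- replicate 1 (1.81).

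Most annotated Tert transcripts do not encode the full protein, and the reads were split among them differently from library to library. The protein-coding transcript Tert-201 (4313 bases) held 28.4, 91.6 and 56.2% of the gene's TPM, a level corrected for transcript length, in Rpl22+/+ and 43.5, 82.2 and 64.8% in Rpl22-/-. Its TPM was 0.164, 0.106 and 0.243 in Rpl22+/+ and 1.02, 0.753 and 0.890 in Rpl22-/-, so the coding transcript was also higher in every Rpl22-/- library than in any Rpl22+/+ library. With protein-coding transcripts alone, the log2 fold change of Tert was 2.34 ± 0.30 SE, with a smaller SE than that of the gene sum. Of the remaining transcripts, Tert-206, annotated as subject to nonsense-mediated decay (the pathway that degrades messages with a premature stop), took 43.4 reads in Rpl22+/+ replicate 1 and 80.8 and 45.3 in Rpl22-/- replicates 1 and 3, but 0 in the other 3 libraries. A share of 0.188% of the 59-base windows of Tert-201 occurs in transcripts of other genes, so few reads can be shared.

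**Figure D2:**
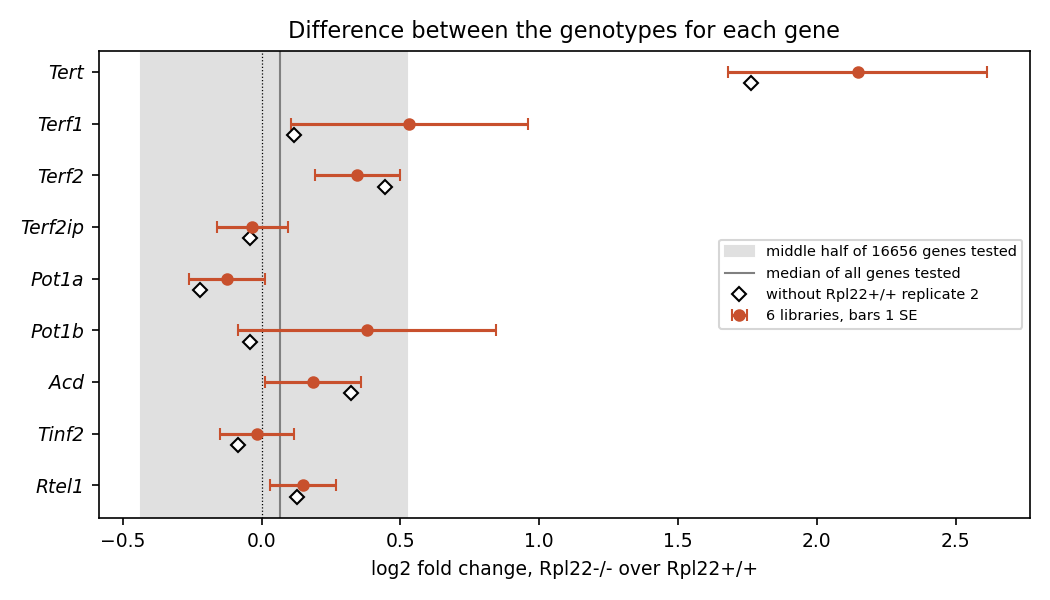
Log2 fold change of Rpl22-/- over Rpl22+/+ for the 9 genes (red points, bars 1 SE) and without Rpl22+/+ replicate 2 (open diamonds), with the interquartile range of 16656 genes in gray and their median as a gray line. Tert lies at 2.15, outside the gray range, Terf1 lies at its edge at 0.53, and the other 7 lie inside it.

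Among the proteins that bind duplex repeats, Terf1 and Terf2 differed in how steady they were. Terf1 (ENSMUSG00000025925, chromosome 1, 15875870 to 15914276), which encodes TRF1, a factor that helps replication forks pass the repeats, was at 16.3, 5.71 and 17.2 CPM in Rpl22+/+ and 25.01, 14.7 and 16.9 CPM in Rpl22-/-. The genotypes overlapped, and the low mean of Rpl22+/+ (13.1 ± 6.38 CPM, against 18.9 ± 5.42 CPM) came from replicate 2. The log2 fold change was 0.53 ± 0.43 SE with that library and 0.12 without it.

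Terf2 (ENSMUSG00000031921, chromosome 8, 107796032 to 107823179, minus strand) encodes TRF2, which keeps chromosome ends from being joined to each other. It was at 27.6, 35.8 and 26.8 CPM in Rpl22+/+ and 38.7, 39.6 and 36.3 CPM in Rpl22-/-, and the genotypes did not overlap, although Rpl22+/+ replicate 2 came within 0.450 CPM of the lowest Rpl22-/- library. The log2 fold change was 0.34 ± 0.15 SE and did not pass the threshold. It was 0.44 without Rpl22+/+ replicate 2, and Terf2 was then called higher, as it was in 4 of 18 alternatives in all. Terf2ip (ENSMUSG00000033430, chromosome 8, 112738030 to 112747160) encodes RAP1, which reaches telomeres by binding TRF2. Its level was nearly the same in all libraries, with 16.7, 17.8 and 16.3 CPM in Rpl22+/+ and 17.4, 15.7 and 16.5 CPM in Rpl22-/- (log2 fold change of -0.03 ± 0.13 SE, and between -0.07 and 0.10 over the alternatives). Per transcript length, the ratio of Terf2 to Terf2ip was 2.54, 2.82 and 2.37 in Rpl22+/+ and 3.42, 3.84 and 3.14 in Rpl22-/-, with no overlap. That of Terf1 to Terf2 overlapped, at 0.894, 0.285 and 1.02 against 0.954, 0.603 and 0.788. That of Acd to Tinf2 overlapped too, at 0.884, 1.12 and 0.813 against 1.22, 1.23 and 1.03, though not with protein-coding transcripts alone. The share of all gene pairs without overlap was not computed.

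Pot1a and Pot1b, the genes of the single-strand binding proteins, had like levels but unlike spreads. Pot1a (ENSMUSG00000029676, chromosome 6, 25743736 to 25809245, minus strand), whose protein represses the DNA damage response at telomeres, was at 23.8, 21.2 and 23.3 CPM in Rpl22+/+ and 23.0, 20.5 and 19.1 CPM in Rpl22-/-. The ranges overlapped, and the log2 fold change was -0.13 ± 0.14 SE. Pot1b (ENSMUSG00000024174, chromosome 17, 55958951 to 56019628, minus strand), whose protein limits resection of the end, was at 21.5, 7.17 and 21.6 CPM in Rpl22+/+ and 30.5, 14.1 and 21.0 CPM in Rpl22-/-. Here too the genotypes overlapped, with replicate 2 the lowest of each, and the log2 fold change of 0.38 ± 0.46 SE became -0.04 without Rpl22+/+ replicate 2. The TPM ratio of Pot1a to Pot1b was 1.29, 2.43 and 1.18 in Rpl22+/+ and 0.787, 1.33 and 0.957 in Rpl22-/-. These ranges overlapped. No 59-base window of the main Pot1a transcript occurs in another gene, so the paralogs can be counted apart.

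Acd and Tinf2 encode the proteins that bridge the duplex and the single-stranded overhang. Acd (ENSMUSG00000038000, chromosome 8, 106422492 to 106427734, minus strand), whose product TPP1 recruits telomerase to the end, was at 31.3, 43.3 and 29.9 CPM in Rpl22+/+ and 40.2, 37.5 and 41.1 CPM in Rpl22-/-. Rpl22+/+ replicate 2 was the highest of the 6 libraries here, and the genotypes overlapped through that library alone. The log2 fold change was 0.18 ± 0.17 SE, and without that library it was 0.32 and Acd was called higher. Tinf2 (ENSMUSG00000007589, chromosome 14, 55912146 to 55919277, minus strand), the hub that holds TRF1, TRF2 and TPP1 together, was at 53.8, 52.2 and 54.8 CPM in Rpl22+/+ and 53.2, 46.5 and 59.3 CPM in Rpl22-/-. Its log2 fold change was -0.02 ± 0.13 SE, and its sign changed in 4 of 18 alternatives. Both genes overlap a neighbor on the opposite strand: 33.3% of the exonic bases of Acd lie in exons of Carmil2 and 31.2% of those of Tinf2 in exons of Gmpr2. The library kit keeps strand, but whether strand was used in counting is not given in the sources used here, so reads of these overlaps may have been shared.

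Rtel1 (ENSMUSG00000038685, chromosome 2, 180961532 to 180998409), the helicase, was at 47.1, 48.9 and 45.6 CPM in Rpl22+/+ and 56.6, 49.97 and 50.6 CPM in Rpl22-/-. The genotypes did not overlap, by a margin of 1.07 CPM between the nearest libraries. The log2 fold change was 0.15 ± 0.12 SE, and Rtel1 was called in 0 of 18 alternatives.

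Several of the 9 genes departed in Rpl22+/+ replicate 2 from the other libraries of that genotype. Relative to the mean of replicates 1 and 3, that library was lower by log2 values of -1.59 for Pot1b, -1.55 for Terf1 and -1.33 for Tert, and higher by 0.50 for Acd and 0.40 for Terf2. Replicate 2 of Rpl22-/- departed the same way for Pot1b (-0.87), Tert (-0.81) and Terf1 (-0.51). The GC content of the main transcripts ran from 42.9% for Terf1 to 57.0% for Acd. Among all genes of at least 5 CPM, the median departure of Rpl22+/+ replicate 2 rose with GC content, from -0.90 under 42% to 0.54 over 54%, and across genes the correlation was 0.57. Acd, Terf2 and Pot1a (-0.16) lay near the medians of their GC classes (0.54, 0.45 and -0.13), whereas Terf1 and Pot1b, of the same class as Pot1a, lay far below it, as did Tert below its own, with a GC content of 53.6%. Rtel1 (0.08 against a class median of 0.45) and Tinf2 (-0.06 against 0.54) were below their classes by less, and Terf2ip was at 0.11 against 0.22. The classes used the GC content of the longest transcript of each gene, and the members that of the main coding transcript. Tert averaged 0.925 and 4.11 CPM in the genotypes, so it is not among the genes of at least 5 CPM that gave the medians. The part of GC content in the members' values was not tested.

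**Figure D3:**
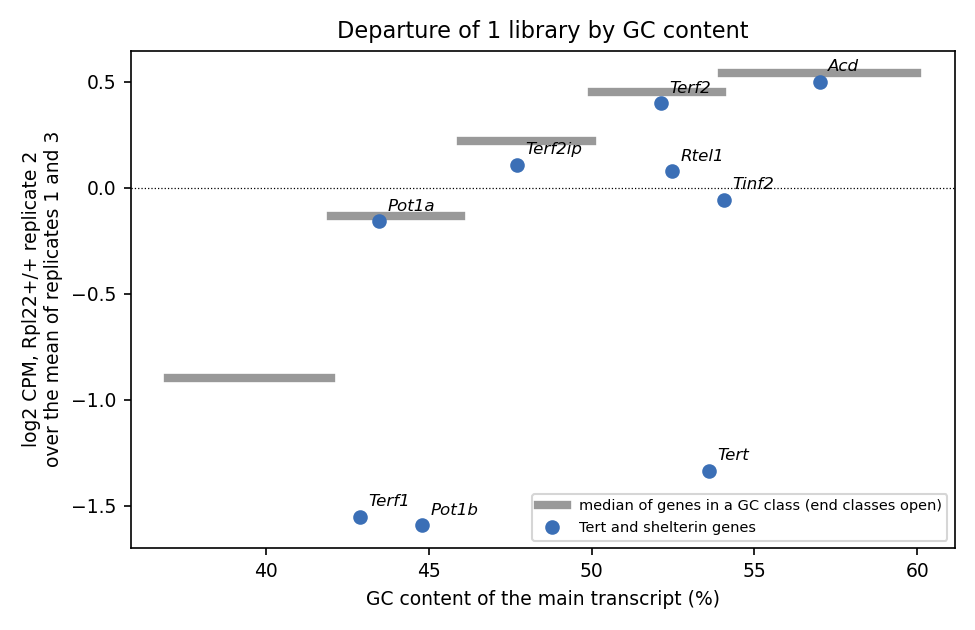
Departure of Rpl22+/+ replicate 2 from the mean of replicates 1 and 3 (log2 of CPM) against the GC content of the main transcript (%), for the 9 genes (blue points) and as the median over all genes of at least 5 CPM in 5 GC classes (gray bars, by GC content of the longest transcript). Pot1b, Terf1 and Tert lie at -1.59, -1.55 and -1.33, below the medians of their classes, and the other 6 genes lie between -0.16 and 0.50.

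Levels of different genes were compared per transcript length. Over the 6 libraries, the TPM of all transcripts was 35.1 ± 5.24 for Acd, 33.8 ± 4.48 for Tinf2, 32.0 ± 7.04 for Rtel1 and 19.5 ± 4.16 for Terf2 (SD, n = 6). Then came Terf1 at 15.0 ± 6.51, Pot1a at 12.1 ± 2.91, Pot1b at 10.7 ± 4.83, Terf2ip at 6.47 ± 0.759 and Tert at 0.959 ± 0.802. Along this order the ranges of neighbors overlapped except between Terf2ip and Tert, and the order of the means over both genotypes held in neither genotype alone. In Rpl22+/+ Tinf2 (33.6 TPM) was ahead of Acd (31.2) and Rtel1 (29.0), and Pot1a (12.8) ahead of Terf1 (11.9). In Rpl22-/- Acd (38.9 TPM) was ahead of Rtel1 (34.9) and Tinf2 (33.9), and Pot1b (12.1) ahead of Pot1a (11.5). Most of the TPM of Acd was in transcripts of other classes than protein coding. With protein-coding transcripts alone, Tinf2 led at 21.2 ± 2.71 TPM, Acd came eighth at 3.36 ± 0.527 TPM, and Terf2ip (5.61 ± 0.459), Acd and Tert (0.529 ± 0.403) had ranges that did not overlap.

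The makeup by transcript class differed widely among the 9 genes. The coding transcript Acd-201 held 9.68 ± 1.34% of the TPM of Acd in Rpl22+/+ and 9.52 ± 0.559% in Rpl22-/-, and transcripts subject to nonsense-mediated decay held 76.4 ± 1.82% and 71.4 ± 3.81%. Rtel1 had 49.8 ± 7.98% and 47.7 ± 4.003% of its TPM in transcripts with a retained intron. Terf2ip, by contrast, was mostly coding, at 87.8 ± 2.78% and 86.2 ± 3.98%. Of the 5 genes with a decay transcript, the share of these transcripts did not overlap between the genotypes in 3, and the same held for 16.4% of 3403 tested genes with such a transcript. The share of Acd was lower in every Rpl22-/- library than in any Rpl22+/+ library, at 75.8, 78.5 and 75.04% in Rpl22+/+ and 67.3, 74.8 and 72.1% in Rpl22-/-. Pot1b and Terf2 had a higher share in every Rpl22-/- library than in any Rpl22+/+ library. For Pot1b it was 16.5, 0.979 and 16.0% in Rpl22+/+ and 27.4, 19.7 and 23.0% in Rpl22-/-, and for Terf2 it was 1.41, 3.11 and 2.54% against 7.25, 3.28 and 6.67%. For Tinf2 the retained intron share was 38.5, 21.0 and 38.0% against 44.6, 39.3 and 39.5%, which made it the 1 gene of 9 without overlap in that class, against 12.7% of 7481 tested genes with a retained intron transcript. As a share of reads, not corrected for length, the retained intron transcripts of Tinf2 did overlap, at 39.4, 22.3 and 43.9% in Rpl22+/+ and 48.4, 44.3 and 41.1% in Rpl22-/-. These shares are estimates from reads that transcripts of a gene hold in common, and no test was made of them.

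**Figure D4:**
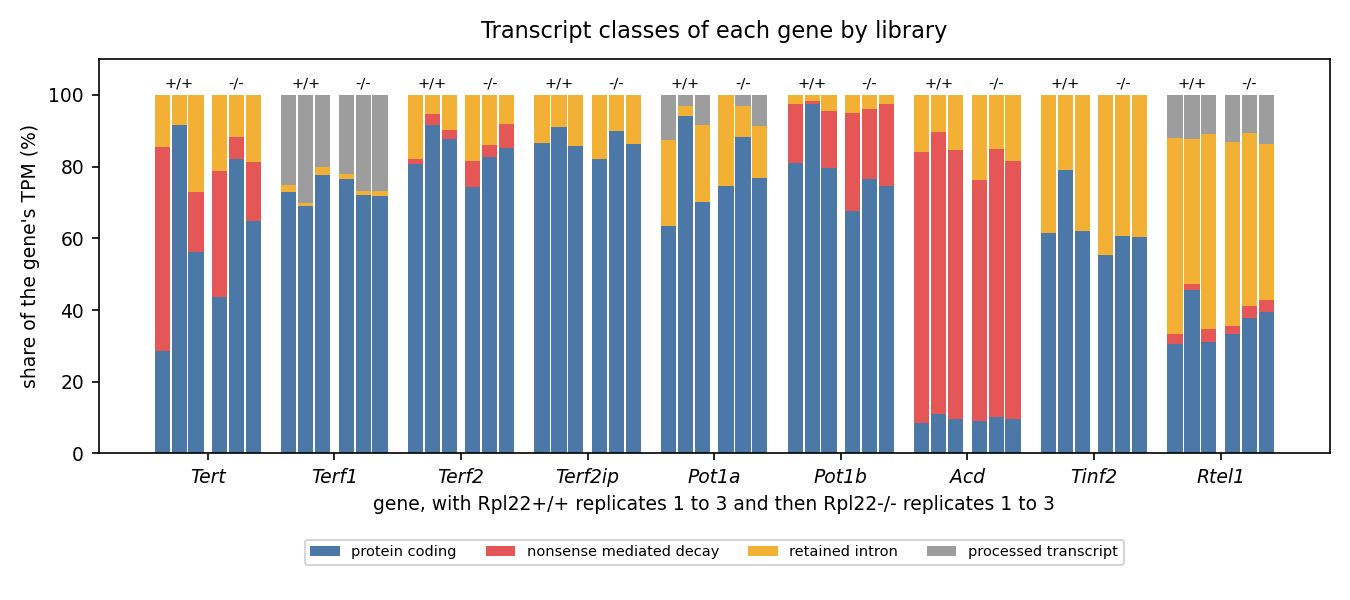
Share of each gene's TPM (%) held by protein-coding, nonsense-mediated decay, retained intron and processed transcripts, as stacked bars for Rpl22+/+ replicates 1 to 3 and then Rpl22-/- replicates 1 to 3. Acd is mostly red (76.4% and 71.4% decay transcripts), Terf2ip mostly blue (87.8% and 86.2% coding), and the red part of Pot1b is larger in Rpl22-/- (23.3%) than in Rpl22+/+ (11.2%).

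Around these 9 genes, 106 genes of telomerase assembly, telomere replication, shelterin partners, end protection and Tert regulation were listed, and 103 were tested. Of these, 10 rose and 11 fell in Rpl22-/- and 82 were not called, where 13.7% of all genes tested rose and 13.8% fell. The same shares stand beside the counts of each list below. The median log2 fold change of the 103 was 0.06. The count that rose was sensitive to the fit: it was 26, with 20 that fell, without Rpl22+/+ replicate 2, and 27 with no composition factor, which moves the median of all genes from 0.07 to 0.19.

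Telomerase is assembled on its RNA by the dyskerin complex. Of 16 tested genes of assembly and trafficking, 1 rose, 1 fell and 14 were not called, with a median of 0.40. Dkc1, which encodes dyskerin, the protein that stabilizes the telomerase RNA, rose from 35.97 ± 6.02 to 59.1 ± 2.83 CPM (log2 fold change of 0.72 ± 0.16, edgeR adjusted p = 0.0172). The other members of that complex did not pass, with log2 fold changes of 0.55 for Nop10, 0.46 for Nhp2 and 0.59 for Gar1. Nop10 was at 23.8, 39.5 and 23.8 CPM in Rpl22+/+ and 35.7, 52.8 and 38.7 CPM in Rpl22-/-. Nhp2 was at 26.8, 47.1 and 26.7 against 38.6, 53.6 and 45.9 CPM. Gar1 was at 14.0, 21.4 and 12.8 against 21.6, 27.0 and 24.1 CPM, without overlap. Rpl22+/+ replicate 2 was the highest of its genotype for Nop10, Nhp2 and Gar1. For Dkc1 it was the lowest, at 29.0 CPM against 39.0 and 39.9. Tep1, a telomerase-associated protein that is also part of vault particles, fell from 102 ± 13.6 to 60.3 ± 3.75 CPM (-0.76 ± 0.14, edgeR adjusted p = 0.00978).

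Of 17 genes of telomere replication and end processing, 1 rose, 2 fell and 14 were not called, with a median of -0.04. Stn1 belongs with Ctc1 and Ten1 to the CST complex, which stops telomerase and fills in the complementary strand. Stn1 was at 11.3, 16.7 and 13.9 CPM in Rpl22+/+ and at 2.77, 3.87 and 3.77 CPM in Rpl22-/-, a fall of 4.004-fold (log2 fold change of -2.00 ± 0.22, edgeR adjusted p = 0.00121). Its partners did not pass, at -0.09 for Ctc1 and -0.04 for Ten1. Samhd1, a dNTP hydrolase, fell from 623 ± 39.4 to 238 ± 16.6 CPM (-1.39 ± 0.14, edgeR adjusted p = 0.000759), and Tipin, a replication fork protein, rose from 37.9 ± 3.36 to 74.8 ± 2.56 CPM (0.98 ± 0.13, edgeR adjusted p = 0.00209).

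Of 24 shelterin partners and length regulators, 2 rose, 3 fell and 19 were not called, with a median of 0.06. Zbtb48, also known as TZAP, a zinc finger protein that binds telomeric repeats and trims long telomeres, was at 10.5, 13.1 and 10.9 CPM in Rpl22+/+ and 26.7, 29.8 and 30.7 CPM in Rpl22-/- (log2 fold change of 1.33 ± 0.15, edgeR adjusted p = 0.00128). It lies 298 kb from Rpl22 on chromosome 4. The nuclease gene Mus81 rose as well (0.74 ± 0.17, edgeR adjusted p = 0.0193). The tankyrases, poly(ADP-ribose) polymerases first known as partners of human TRF1, fell, with log2 fold changes of -0.83 ± 0.24 for Tnks (edgeR adjusted p = 0.0412) and -0.66 ± 0.14 for Tnks2 (edgeR adjusted p = 0.0148). Nek7, a kinase reported to stabilize TRF1, fell from 93.8 ± 2.90 to 50.2 ± 3.52 CPM (-0.90 ± 0.12, edgeR adjusted p = 0.00246).

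Of 25 genes of end protection and damage signaling, 4 rose, 1 fell and 20 were not called, with a median of 0.37. Atrip, the partner of the ATR kinase, rose from 16.6 ± 3.19 to 33.3 ± 1.56 CPM (log2 fold change of 1.01 ± 0.17, edgeR adjusted p = 0.00607). Nbn of the MRN complex, which senses breaks, rose as well (1.28 ± 0.34, edgeR adjusted p = 0.0321). Mad2l2 of the shieldin axis rose (0.84 ± 0.23, edgeR adjusted p = 0.0352), while the shieldin subunit Shld1 fell from 5.36 ± 1.31 to 2.56 ± 0.224 CPM (-1.06 ± 0.23, edgeR adjusted p = 0.0160). The fourth that rose, named after its values were seen, was Rpa2 (0.74 ± 0.21, edgeR adjusted p = 0.0441), a subunit of the single-strand binding protein RPA. The kinases Atm and Atr did not pass, with log2 fold changes of 0.76 ± 0.81 and 0.64 ± 0.81. Both values include a very low Rpl22+/+ replicate 2. Atm was at 34.9, 2.49 and 30.7 CPM in Rpl22+/+ and 48.3, 25.3 and 41.5 CPM in Rpl22-/-. Atr was at 36.1, 2.88 and 29.6 CPM against 53.4, 19.8 and 34.1 CPM.

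Of 21 tested regulators known for the Tert promoter, 2 rose, 4 fell and 15 were not called, with a median of -0.21. Myc, an activator of Tert that binds E-boxes with Max, was at 30.3, 44.7 and 33.3 CPM in Rpl22+/+ and 130, 128 and 117 CPM in Rpl22-/- (log2 fold change of 1.79 ± 0.18, edgeR adjusted p = 0.000804). Mxd1, which competes with Myc for Max and represses Tert, was at 589, 707 and 618 CPM in Rpl22+/+ and 136, 129 and 127 CPM in Rpl22-/- (-2.29 ± 0.14, edgeR adjusted p = 0.000138). For both genes the genotypes did not overlap. Max, named after its values were seen, fell from 188 ± 26.3 to 77.1 ± 2.30 CPM (-1.28 ± 0.15, edgeR adjusted p = 0.00132). The ETS family gene Ets1 fell (-1.25 ± 0.13, edgeR adjusted p = 0.000804) and the ETS family repressor Etv6 rose (0.76 ± 0.15, edgeR adjusted p = 0.0118). Mycn, a relative of Myc, fell from a low level, with 165 reads in Rpl22+/+ and 5 in Rpl22-/- (edgeR adjusted p = 0.00107). Scaled by depth, these reads stand in a ratio of 36.7, whose exact 95% interval for counting error is 15.4 to 114. Sp1, which binds GC boxes, did not pass (-0.56 ± 0.18).

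**Figure D5:**
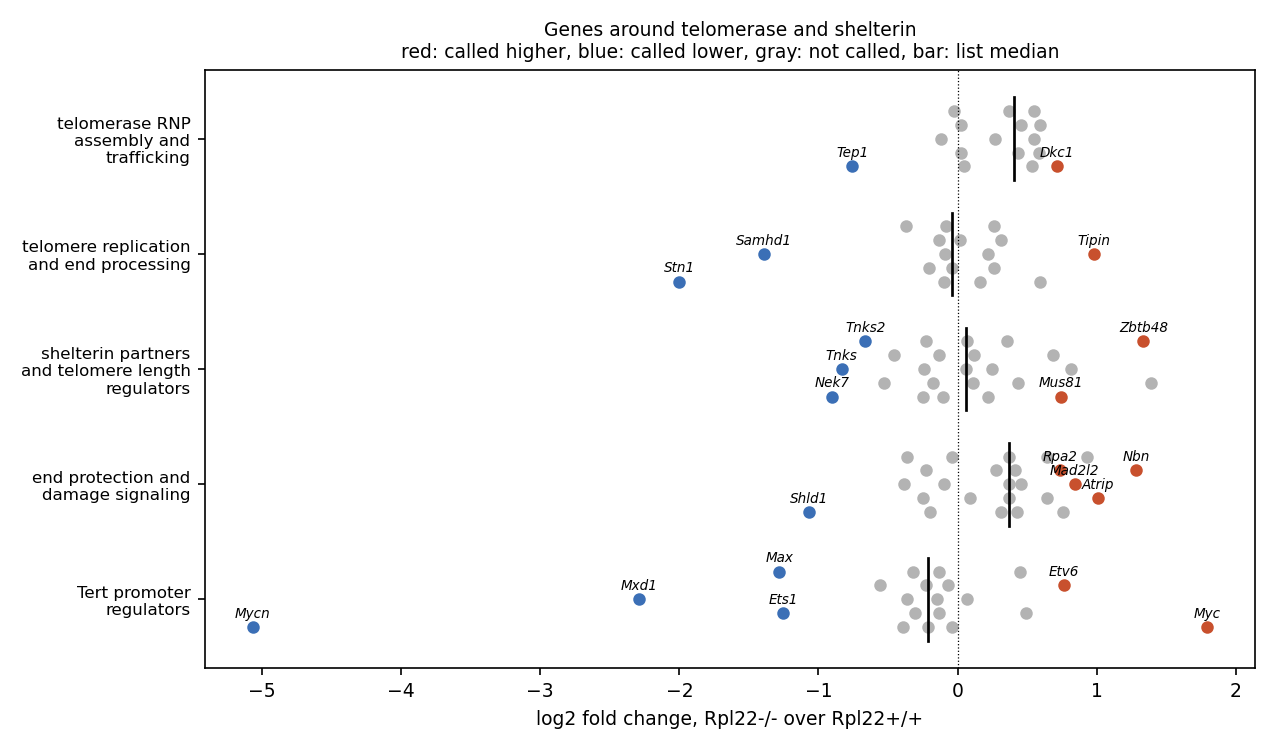
Log2 fold change of Rpl22-/- over Rpl22+/+ for the 103 tested genes in 5 lists (red called higher, blue called lower, gray not called, black bar the list median), with called genes named. Myc is the highest called gene at 1.79 and Mycn the lowest at -5.07, and the list medians lie between -0.21 and 0.40.

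Of the 10 list genes that rose, 6 lie on chromosomes 4 and 9, a comparison made after the values were seen. On chromosome 4, 4 of 5 tested genes of the lists rose (Zbtb48, Nbn, Mad2l2 and Rpa2), on chromosome 9 it was 2 of 8 (Atrip and Tipin), and elsewhere 4 of 90. Shares over all genes cover only the tested genes with a known position. Of these, 33.4% of 832 rose on chromosome 4, 27.6% of 757 on chromosome 9 and 12.4% of 12161 on the other chromosomes. The median log2 fold changes were 0.44, 0.34 and 0.00. None of the 9 telomerase and shelterin genes lies on chromosome 4 or 9. The part of chromosomal position in these rises was not tested.

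Markers of other cells moved with genotype beside Tert. The counts here stand beside shares of 13.7% of all genes tested that rose and 13.8% that fell. Of 7 erythroid genes 6 rose, with a summed level of 60.3 to 92.7 CPM in Rpl22+/+ and 399 to 790 CPM in Rpl22-/-. Of 8 T cell genes 8 fell, from a sum of 56.7 to 75.8 CPM to 21.2 to 25.2 CPM. Of 7 B cell genes 2 fell and 5 were not called, with sums of 800 to 1014 CPM and 507 to 743 CPM. The 3 platelet genes tested, Itga2b, Gp1bb and Gp9, were not called, and Pf4 and Ppbp were at or near 0. Stromal genes summed to 60.8 to 72.6 CPM and 74.3 to 94.9 CPM, nearly all of it Pecam1, and 1 of 4 tested, Pdgfrb, fell. The higher sum in Rpl22-/- was that of Pecam1, which was not called. Col1a1 averaged 3.95 and 2.81 CPM and Cdh5 0.739 and 0.467 CPM, also not called, and Col1a2 and Col3a1 were near 0. Of 18 proliferation genes 1, Ccna2, fell and 17 were not called, with sums of 2862 to 3081 CPM and 2920 to 3573 CPM. The part of these cells, and of the change in myeloid markers, in the Tert difference was not tested.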

How the data were processed

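Transcript abundance in CD11b+Gr1+ splenocytes of Rpl22+/+ and Rpl22-/- Mll-AF9 leukemias (3 libraries each, 6 in all, from a stranded mRNA kit) was deposited per library. The authors used Trimmomatic for trimming and Salmon for quantification, and deposited estimated counts, TPM and effective length for each transcript; versions and the transcript set are not given in the sources used here. The genome build in the submitters' processing notes is GRCm39. Of 276623 transcripts, 136036 (49.2%) were matched by identifier to GENCODE vM21 gene names, and these held 98.0 to 98.1% of the reads of each library. A table of the whole series that the authors deposited holds their own comparison (base mean, log2 fold change, its error, test statistic, p-value, adjusted p-value, −log10 p-value and a mark of significance). None of these columns was used, only gene positions.

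Estimated counts were summed to genes and rounded. Genes were kept by filterByExpr, scaled by TMM and tested between the genotypes with edgeR's quasi-likelihood F test (edgeR 4.0.16, R 4.3.3), two-sided, with Benjamini-Hochberg adjustment over all genes tested and a threshold of 0.05. CPM were computed on TMM-scaled library sizes, and log2 CPM for correlations used a prior count of 2. Fold changes from TPM are on the log2(TPM + pseudocount) scale, which understates changes of low genes. The scripts were tested on simulated data. Depth ran from 35828500 to 102866127 reads, and intervals cover counting error only.

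The 9 genes and all lists (5 telomere lists, proliferation and cell type markers) were chosen with earlier results of these data known. The summed level of the platelet markers is not reported here. Named were the 9 genes, Rpl22, in each telomere list up to 3 genes that rose and 3 that fell with the smallest p-values, and the 5 genes most like Tert. Rpa2, Max and the uncalled Nop10, Nhp2, Gar1, Ctc1, Ten1, Atm, Atr and Sp1 were named after their values were seen. Alternatives were 3 other normalizations, 2 filters, DESeq2 1.42.0, limma 3.58.1 (voom, and log2 TPM with pseudocounts of 1 and 0.1), an offset for transcript length, protein-coding transcripts alone, a replicate block and each library left out. Promoters came from RefSeq (GRCm38.p6). Figures were drawn with matplotlib 3.10.9.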

Additional observations from a re-analysis of the deposited data

How the results depend on the processing

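Tert kept its direction in 18 of 18 alternatives (log2 fold changes 0.86 to 2.49) and its call in 16. Of the telomerase and shelterin genes, 2 were called higher with no composition factor, with log2(TPM + 1) and with log2(TPM + 0.1), Terf2 being the second each time, and leaving out 1 library gave 0 to 3. None was called lower in any alternative. The log2 fold change of Terf2ip, -0.03, was 0.012 with upper-quartile factors, 0.10 with no composition factor, 0.068 with log2(TPM + 1) and 0.078 with log2(TPM + 0.1). That of Tinf2, -0.02, was 0.027, 0.11 and 0.000090 with the first 3 of these and -0.10 to 0.050 when 1 library was left out, the highest without Rpl22-/- replicate 2, and that of Pot1b, 0.38, was -0.044 to 0.60 when 1 library was left out, the lowest without Rpl22+/+ replicate 2. Over all genes, 2288 higher and 2306 lower became 3543 higher with no composition factor, and 1175 to 3540 higher and 1392 to 3311 lower when 1 library was left out. The share of calls that were higher went from 49.8% to 61.5% with no composition factor, 60.4% with log2(TPM + 1) and 59.9% with log2(TPM + 0.1). Telomere list genes called higher, 10, became 16 with upper-quartile factors, 27 with no composition factor, 26 with log2(TPM + 1), 23 with log2(TPM + 0.1), 17 with the length offset and 19 with protein-coding transcripts. Leaving out 1 library gave 5 to 26 higher and 8 to 20 lower, against 10 and 11, the highest of both without Rpl22+/+ replicate 2. The cause of these shifts was not tested. For the 19 list genes named by rule, 304 of 341 alternative values kept call and direction, 37 lost the call and 0 reversed.

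Whether replicate numbers pair the libraries was examined through deviations from the genotype means, which correlated across genes at 0.48, 0.63 and 0.097 for replicates 1, 2 and 3, so not every pair was over 0.1 and the pairing was not settled by these values. With the replicate block, 2943 genes were higher and 2688 lower, Tert was called (log2 fold change 2.20) as 1 of 9, and 22 list genes were higher and 13 lower. Rpl22+/+ replicate 3 correlated better with Rpl22-/- replicate 1 (0.36) than with its own number.

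Of the 9 genes Tert had the fewest reads, 34 to 392 in a library.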

Other observations

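Tert lies among genes that did not move with it. Of 9 tested genes with a known position within 500 kb of Tert on chromosome 13, 2 fell and 7 were not called. Over all genes tested, 13.8% fell and 13.7% rose. The median log2 fold change of the 9 neighbors was 0.04. Clptm1l, 6.31 kb away and a neighbor of Tert in mouse and human alike, was at 132 and 157 CPM in Rpl22+/+ and Rpl22-/- (log2 fold change of 0.24 ± 0.20, edgeR adjusted p = 0.437). Those that fell were Lpcat1, a phospholipid acyltransferase (-1.63 ± 0.21, edgeR adjusted p = 0.00206), and Tppp, a tubulin-binding protein (-1.92 ± 0.30, edgeR adjusted p = 0.00482). The neighborhood was examined after the value of Tert was seen.

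Over the 6 libraries, the genes whose log2 CPM most resembled that of Tert were Zcchc4, Gm3383, Xlr4c, Cpne8 and 6030442K20Rik, with Pearson correlations between 0.997 and 0.999. They are the highest 5 of 16656 genes, and all share with Tert both the genotype difference (log2 fold changes 0.86 to 3.72) and the libraries. Within the genotypes, after the genotype mean was removed, Tert went with Pot1b (0.97), Terf1 (0.94) and Pot1a (0.79) and against Terf2 (-0.75) and Acd (-0.65) over the 6 libraries, and Terf1 and Pot1b correlated at 0.98. These values are descriptions, and Tert, Terf1 and Pot1b were each lowest in replicate 2 of both genotypes, while Pot1a was lowest in replicate 2 of Rpl22+/+ and in replicate 3 of Rpl22-/-.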
